A study of Mus musculus with 12 samples.

Results

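The 10 carboxylesterase genes Ces1c, Ces1d, Ces1e, Ces1f, Ces1g, Ces2a, Ces2c, Ces2e, Ces3a and Ces3b were followed in mouse liver RNA-seq. They were chosen by name, as the rows of the deposited table that carry these symbols, and are 10 of 21705 genes in the table. Family 1 has 5 of them, family 2 has 3 and family 3 has 2. The livers came from C57BL/6J female mice aged 10 to 12 weeks, 6 given saline and 6 given LNA29 through the tail vein. LNA29 is a mixture of locked nucleic acids, short modified oligonucleotides that bind and block a microRNA, here against miR-29a and against miR-29b/c at 20 mg/kg each. All mice were killed on day 7 after an 18 h fast, and no allele or transgene separates the groups. Saline was the only control in these libraries, so an effect of LNA29 and an effect of any injected oligonucleotide cannot be told apart. The libraries hold polyadenylated RNA, so miR-29 itself was not measured in them. Livers are named by their group and the number in their labels.

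Carboxylesterases are serine hydrolases that cleave esters, amides and thioesters. In hepatocytes most of them sit in the lumen of the endoplasmic reticulum, where they hydrolyse drugs, prodrugs, environmental esters and, for several members, the neutral lipids that are stored in droplets or packed into lipoproteins. In rodents the families arose by tandem duplication, so that neighbouring genes encode similar enzymes.

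All 10 genes lie on chromosome 8 (GENCODE release M21, GRCm38, not necessarily the annotation behind the deposited values, which the labels place on mm9). The 5 genes of family 1 form a run on the minus strand from 93099015 to 93337308, and families 2 and 3 follow each other on the plus strand from 104734003 to 105093929. Each gene has between 12 and 14 exons and encodes a protein of 554 to 571 residues. Coding sequences within a family were identical at 72.6% to 95.3% of aligned positions (14 pairs, median 78.2%), with Ces3a and Ces3b the closest pair. Between families the identity was 54.7% to 60.3% (31 pairs). The last coding bases are shown for the members on which the results turn, because they encode the C-terminal residues that hold a carboxylesterase in the endoplasmic reticulum, a signal that the secreted plasma enzyme Ces1c lacks. Capitals mark the 12 bases before the stop codon, and all lines are written 5′ to 3′ on the coding strand.
Ces1c (chr8:93099165-93099194, minus strand, exon 13 of 13): gaccctactgaacacACAGAACACAAAtga
Ces1d (chr8:93166255-93166284, minus strand, exon 14 of 14): ccatcccacagggaaCATGTTGAGCTCtga
Ces1f (chr8:93256429-93256458, minus strand, exon 14 of 14): caaccccagccatacCACAATGAGCTGtga
Ces2c (chr8:104854235-104854264, plus strand, exon 12 of 12): gcttctcaggacaagCACAGGGAGCTTtag
Ces2e (chr8:104933685-104933714, plus strand, exon 12 of 12): gggtctcaggagaggCACAAAGAGTTGtag
Ces3a (chr8:105058074-105058103, plus strand, exon 13 of 13): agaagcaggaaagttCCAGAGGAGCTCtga
Ces3b (chr8:105093233-105093262, plus strand, exon 13 of 13): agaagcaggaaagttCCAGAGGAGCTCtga
In these 12 bases Ces1c matched the other 9 members at only 1 to 5 positions, whereas the 9 others matched each other at 6 to 12. Ces3a and Ces3b were identical over the whole printed stretch.

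How far reads can tell the members apart was read from windows as long as the 100-base reads. No such window of Ces1d, Ces1e, Ces1f, Ces1g or Ces2e was found in a transcript of another gene. Ces1c shared 24 windows (1.39%) with its neighbour Ces1b, and Ces2a shared 200 (10.7%) with the gene model Gm7208. Ces2c had 299 windows (15.98%) in Ces2d-ps, Gm8798 or Gm6831. The same 177 windows stood in both Ces3a and Ces3b, 9.09% and 7.68% of their windows. RSEM, the program with which the authors assigned reads, splits such reads between genes, so values of Ces1c, Ces2a, Ces2c, Ces3a and Ces3b carry that uncertainty. Reads were fractional in 3 livers for Ces1d and in 1 for Ces2e, so these windows do not capture every split.

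Reads on genes numbered between 7696081 and 19062437 per liver, with a median of 12012000 in saline and 9123460 in LNA29 livers. The deposited unit is a signal value, the RSEM reads of a gene divided by the upper quartile of its library and multiplied by 1000. In these units 1 read was worth 9.80 to 24.4, with a median of 12.9 in saline and 18.4 in LNA29 livers. The part of this difference in depth in the results was not tested. Saline replicate 49 stood apart, with albumin at 35.7% of its reads against 43.6% to 46.9% in the other livers, and results that rest on it are given without it as well. All 6 hepatocyte markers were present, with a summed level of 31831700 to 108657000 in saline and 78846000 to 93471800 in LNA29 livers. Of 5 intestinal markers, Sis, Lct and Cdx2 were listed at 1 in every liver, the value of a gene without reads. Vil1 had 1 read in saline replicate 51 and none elsewhere. Fabp2 was present in every liver, at 1760 ± 329 in saline and 1472 ± 470 in LNA29 livers (SD, n = 6 each). The summed ranges of LNA29 and saline livers overlapped for stellate (6 markers), Kupffer (6), endothelial (6), bile duct (6) and blood cell markers (4 of 6 in the table). In Kupffer cells, the summed level spanned 6438 to 9186 in saline and 5411 to 13438 in LNA29 livers, and in blood cells 1987 to 5622 and 2531 to 16769. Of the 6 Kupffer markers, 5 had a lower mean in LNA29 livers. The other, Marco, was higher (1257 ± 1081 against 514 ± 241, SD, n = 6 each, exact permutation p = 0.0368, adjusted p in limma = 0.391). Its value was 3425 in LNA29 replicate 54 and 446 to 987.5 in the other LNA29 livers. The part of other cell types in the results was not tested, and in whole liver fewer cells of a type and less RNA per cell cannot be told apart.

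Carboxylesterase mRNA was dominated by a single gene. Together the 10 members took between 0.157% and 0.254% of the reads on genes in a liver, and Ces1c, the plasma esterase, took 71.7% to 80.2% of these. Per kilobase of transcript, the signal of Ces1c in saline livers was 145453 ± 38526 (SD, n = 6). Ces1d, known as triacylglycerol hydrolase, came next with 15376 ± 3204 per kilobase, followed by Ces3a with 10918 ± 2665, and the ranges of Ces1d and Ces3a overlapped. A middle group followed, with Ces1g at 3131 ± 867, Ces1f at 3012 ± 774, Ces2a at 2756 ± 351, Ces3b at 2021 ± 475 and Ces1e at 1584 ± 265 per kilobase (SD, n = 6). Within this group each neighbour in the order overlapped the next. Ces2e had 711 ± 97.7 per kilobase and Ces2c had 150 ± 72.9, both without overlap with the gene above. Breaks in the order, where all 6 saline livers of one gene lay above those of the next, were those between Ces1c and Ces1d, Ces3a and Ces1g, Ces1e and Ces2e, and Ces2e and Ces2c. In LNA29 livers the order was the same except that Ces2a stood in place 4, ahead of Ces1g and Ces1f.

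**Figure D1:**
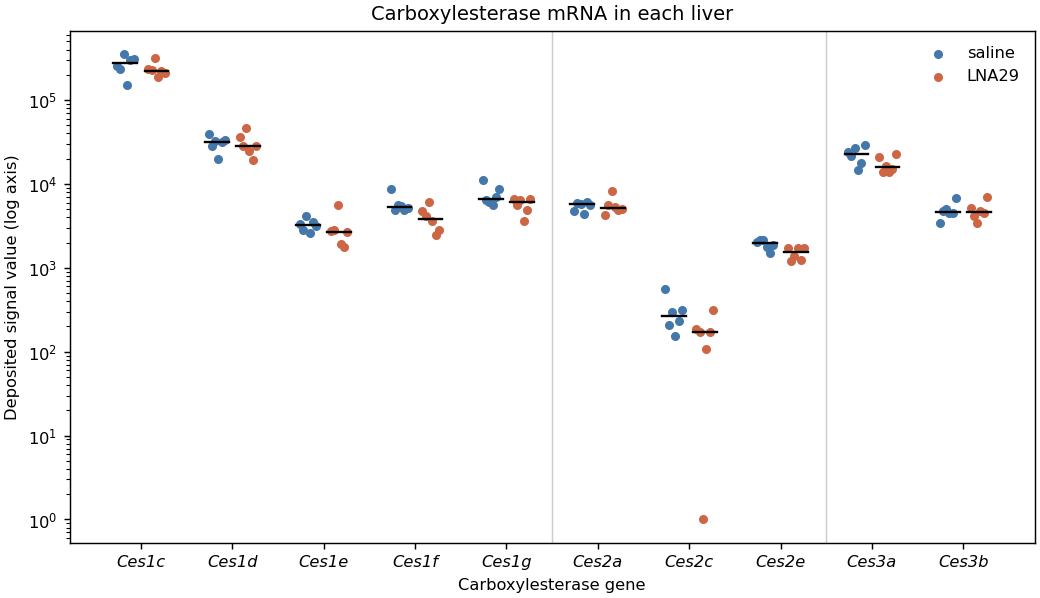
Deposited signal value of the 10 carboxylesterases on a log axis, 1 point per liver (6 saline, blue, and 6 LNA29, orange), with the median of each group as a black line and thin vertical lines between the families. Ces1c lies above every other gene of the family in every liver, and the single Ces2c point at 1 is LNA29 replicate 48, which had no read of this gene.

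Whether blocking miR-29 went with a change in this enzyme family was read from the comparison of 6 LNA29 with 6 saline livers. In LNA29 livers 9 of the 10 carboxylesterases had a lower mean on the log2(value + 1) scale, on which all differences are given here with their standard error (SE), with a median difference of -0.31, and Ces2a had a mean 0.02 higher. Over all 12486 genes with a mean value of at least 10 the median was -0.09, and 7671 genes (61.4%) were lower. None of the members had an adjusted p under 0.05 in limma, whose smallest among them was 0.413 for Ces1f, where 20 of 12486 genes (0.16%) did. At an unadjusted limma p under 0.05, 3 of the 10 were lower (Ces1f, Ces1g and Ces2e) and 0 were higher, against 5.97% of all genes lower and 1.95% higher. Of these 3, Ces1f alone remained under 0.05 with a common median (Ces1g 0.0859, Ces2e 0.0642) and with median-of-ratios scaling (Ces1g 0.102, Ces2e 0.0705). Such unadjusted calls over all genes were 745 lower and 243 higher on the deposited scale, 590 and 299 once all livers had been brought to the same median, and 501 and 393 after median-of-ratios scaling. In the exact permutation test, 2 members had a p under 0.05, Ces1f and Ces2e, both lower in LNA29 livers, where 6.34% of all genes passed the same test in the lower and 2.15% in the higher direction. Under either other scaling neither kept a p under 0.05. For no member were the groups without overlap, which was the case for 0.713% of all genes in the lower and 0.272% in the higher direction.

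**Figure D2:**
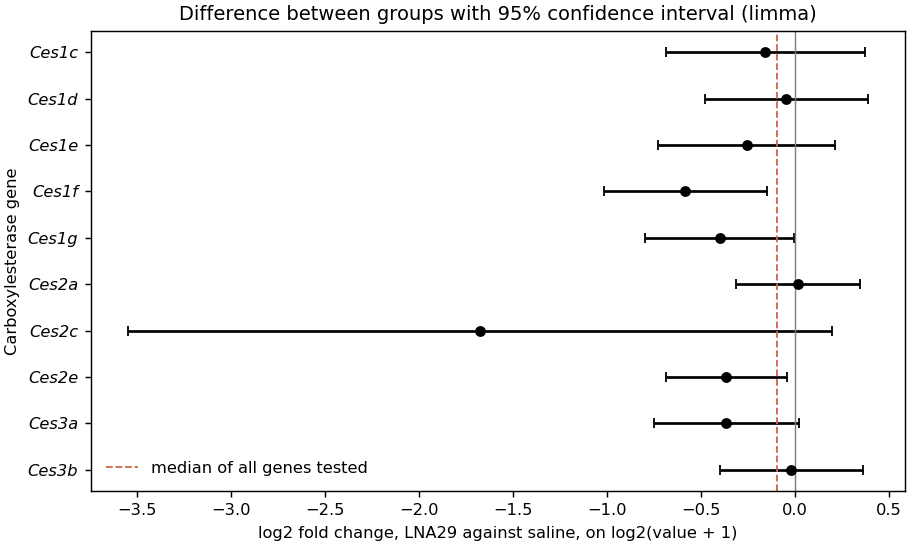
Difference between 6 LNA29 and 6 saline livers for each carboxylesterase as a log2 fold change on the log2(value + 1) scale (points) with the 95% confidence interval from limma (bars), beside 0 (grey line) and the median of all 12486 genes tested (dashed line, -0.09). The intervals of Ces1f, Ces1g and Ces2e lie below 0, and that of Ces2c is the widest, from -3.55 to 0.20.

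Family 1 holds the secreted plasma esterase and the lipid hydrolases of the hepatocyte. Ces1f, a microsomal triacylglycerol hydrolase also called TGH-2, had signal values in saline livers from 4879 to 8781 with a median of 5279, and in LNA29 livers from 2491 to 6019 with a median of 3847. In 5 of 6 LNA29 livers it was below the lowest saline liver, and only LNA29 replicate 48 overlapped. Its mean was 3960 ± 1302 in LNA29 against 5801 ± 1491 in saline livers (SD, n = 6 each), and the log2 difference was -0.58 (SE 0.20, p = 0.0325 by exact permutation, adjusted p in limma = 0.413). The exact p was 0.0628 with a common median and 0.0693 with median-of-ratios scaling, where the unadjusted limma p was 0.0254 and 0.0295. Of the 12 livers, leaving out saline replicate 43 or 47 or LNA29 replicate 46, 50, 52 or 54 took the exact p above 0.05, with values up to 0.0714 without saline replicate 43, the highest of the saline livers. Without saline replicate 49 the difference was -0.59 and the exact p 0.0498.

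Ces1g, an esterase that limits the secretion of very-low-density lipoprotein, was between 5600 and 11094 in saline livers (median 6652) and between 3607 and 6688 in LNA29 livers (median 6041). LNA29 livers lay in the lower part of the saline range, and 2 of 6 lay under it. The log2 difference was -0.40 (SE 0.19, p = 0.0909 by exact permutation, adjusted p in limma = 0.624), and -0.16 (exact permutation p = 0.333) when values beyond 1.5 SD were dropped. Without saline replicate 49, its lowest saline liver, Ces1g was at -0.48 (exact permutation p = 0.0541). Ces1e, egasyn, which anchors β-glucuronidase in the endoplasmic reticulum, ranged from 2630 to 4175 in saline (median 3265) and from 1792 to 5623 in LNA29 livers (median 2706). Both the lowest and the highest value of Ces1e were those of LNA29 livers. On log2 the difference was -0.26 (SE 0.22, p = 0.342 by exact permutation), and -0.47 without LNA29 replicate 48 (exact permutation p = 0.0238). Leaving out saline replicate 49, the lowest saline liver for Ces1e, gave -0.32 (exact permutation p = 0.284).

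The pair with the most mRNA, Ces1c and Ces1d, had smaller differences, whose exact p was above 0.05 on the values as deposited. Ces1c ranged from 149399 to 349074 in saline (median 277937) and from 189787 to 321434 in LNA29 livers (median 224675), a log2 difference of -0.16 with a 95% confidence interval of -0.69 to 0.37 (exact permutation p = 0.461). The lowest Ces1c value was that of saline replicate 49, and without that liver the ratio of the LNA29 to the saline mean was 0.808 instead of 0.878. When values more than 1.5 SD from their group mean were dropped, which left 5 livers per group, Ces1c was at -0.41 (exact permutation p = 0.0159) and Ces1d at -0.30 (exact permutation p = 0.0873). For both, this took out saline replicate 49, the lowest saline liver, and LNA29 replicate 48, the highest LNA29 liver. Values were dropped with the groups known, so these p-values are not exact. Under that rule 2100 of 12486 genes had an unadjusted limma p under 0.05, against 988 without it. Ces1d, which releases fatty acids from stored triacylglycerol for lipoprotein assembly, ranged from 19804 to 38984 in saline (median 32031) and from 19509 to 46075 in LNA29 livers (median 27974). Its log2 difference was -0.05 with an interval of -0.48 to 0.39 (exact permutation p = 0.853). That sign turned under both other scalings, to 0.00031 and 0.030. Without saline replicate 49, its lowest saline liver, Ces1d was at -0.17 (exact permutation p = 0.45). Summed over family 1, the signal was 276463 ± 57263 in LNA29 and 313263 ± 76007 in saline (SD, n = 6 each), and 42908 ± 12710 and 47374 ± 9494 without Ces1c. The LNA29 mean was 0.883 of the saline mean for the whole family, and 0.815 without saline replicate 49.

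Family 2 members are best known as hydrolases of drugs and, in rodents, of acylglycerols and acylcarnitines. Ces2e, an esterase also known for the hydrolysis of pyrethroid insecticides, ranged from 1485 to 2175 in saline livers (median 1962) and from 1195 to 1726 in LNA29 livers (median 1546). All 6 LNA29 livers were below the saline median and 3 were below the lowest saline liver. The mean was 1494 ± 257 against 1918 ± 264 (SD, n = 6 each), and the log2 difference was -0.37 (SE 0.15, p = 0.0238 by exact permutation, adjusted p in limma = 0.537). Its exact p stayed under 0.05 whichever of the 12 livers was left out (0.00866 to 0.0498), and was 0.0584 with a common median and 0.0541 with median-of-ratios scaling. The unadjusted limma p of Ces2e was 0.101 with array weights. Without saline replicate 43, 45 or 47 or LNA29 replicate 46 or 52 that limma p was 0.0507 to 0.0686. Between 49 and 193 reads per liver stood behind the Ces2e values.

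Ces2a, an abundant hepatic member of the family, had nearly the same mean in both groups. It ranged from 4345 to 6051 in saline (median 5705) and from 4250 to 8302 in LNA29 livers (median 5201), a log2 difference of 0.02 with a 95% confidence interval of -0.31 to 0.35 (exact permutation p = 0.929). The sign turned to -0.17 once values more than 1.5 SD away from the mean of their group had been discarded, and to -0.044 without saline replicate 49, its lowest saline liver. Its highest value was that of LNA29 replicate 48. In the same liver Ces2c, an acylcarnitine hydrolase, had no read, so that its share there is at most that of 3 reads, a value of 56.6. The other LNA29 livers had Ces2c values of 107 to 315 and the saline livers 155 to 562.5 (median 265), from at most 36 reads per liver. With that liver, entered at the 1 that stands for no reads, the log2 difference was -1.68 (SE 0.89, p = 0.0671 by exact permutation), and without it -0.59 (exact permutation p = 0.141). Without LNA29 replicate 54, the highest of its group, it was -2.05 (exact permutation p = 0.00866). Leaving out saline replicate 49, the lowest saline liver for Ces2c, gave -1.83 (exact permutation p = 0.0736). Then 5 LNA29 livers lay below the lowest remaining saline liver. The pseudogene Ces2d-ps, which shares windows with Ces2c, had reads only in saline replicate 49 and LNA29 replicate 48, at most 3 per liver. Summed over family 2, where Ces2a prevails, the signal was 7206 ± 1287 in LNA29 and 7614 ± 740 in saline (SD, n = 6 each), a ratio of 0.946, or 0.914 without saline replicate 49.

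Family 3 consists of the closely similar Ces3a and Ces3b, esterases found mainly in liver. Ces3a ranged from 14690 to 28901 in saline (median 22742) and from 14053 to 22547 in LNA29 livers (median 15774). All 6 LNA29 livers lay below the saline median, 2 of them below the lowest saline liver. The log2 difference was -0.36 (SE 0.18, p = 0.0887 by exact permutation, adjusted p in limma = 0.663). The lowest saline liver was again replicate 49, and without it the log2 difference was -0.48 (exact permutation p = 0.0281). Without LNA29 replicate 54 it was -0.45 (exact permutation p = 0.0498). Ces3b ranged from 3382 to 6874 in saline (median 4627) and from 3398 to 6987 in LNA29 livers (median 4616), nearly the same span, with a log2 difference of -0.02 (95% confidence interval -0.40 to 0.36, exact permutation p = 0.926), which turned to 0.03 and 0.06 under the other scalings. Both genes had reads split by RSEM in 11 of 12 livers. Their sum, which does not depend on that split, was 22019 ± 4682 in LNA29 and 27197 ± 6112 in saline (SD, n = 6 each), a ratio of 0.81, or 0.765 without saline replicate 49.

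A ratio of 2 members within a liver does not depend on the scaling of its library, and all 14 pairs within families were compared, with adjustment over the 14. The members were chosen with earlier results of these data known, which that adjustment does not cover. The ratio of Ces1d to Ces1f differed between the groups. On the log2 scale the ratio of Ces1d to Ces1f ranged from 1.87 to 2.72 in saline and from 2.76 to 3.31 in LNA29 livers, without overlap. How often ratios of other genes are without overlap was not counted. The mean difference of the Ces1d to Ces1f ratio was 0.54 (2.95 ± 0.20 against 2.41 ± 0.34, SD, n = 6 each, exact permutation p = 0.00216, the smallest possible, adjusted p = 0.0303). It was between 0.43 and 0.60 when any of the 12 livers was left out, the lowest being that without saline replicate 49. Its adjusted p stayed at 0.0303 without any of the saline livers and was 0.0909 to 0.136 without any of the LNA29 livers. Ces1d and Ces1f share no 100-base window, and their coding sequences are identical at 77.5% of positions. None of the other 13 pairs had an unadjusted exact p under 0.05, among them Ces1d to Ces1g (difference 0.35, exact permutation p = 0.0671, adjusted p = 0.312) and Ces3a to Ces3b (-0.35, p = 0.102, adjusted p = 0.312).

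**Figure D3:**
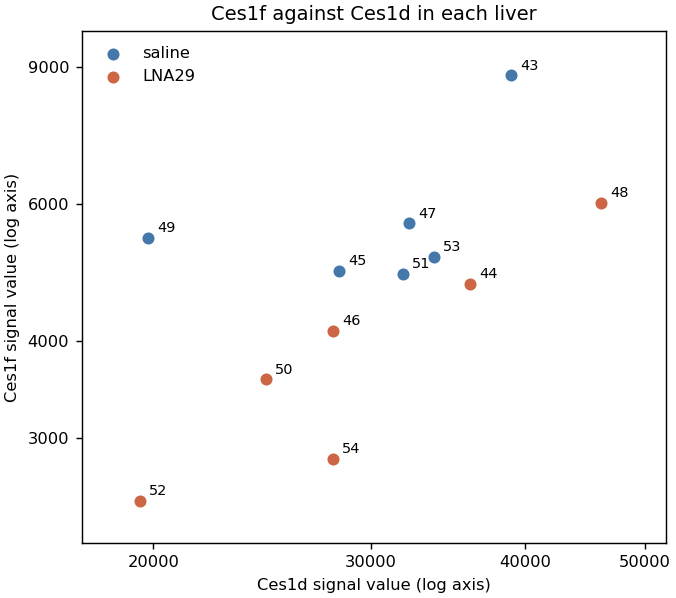
Signal value of Ces1f against that of Ces1d in each liver, both on log axes, for 6 saline (blue) and 6 LNA29 livers (orange), marked with their replicate numbers. The groups overlap along each axis. The log2 ratio of Ces1d to Ces1f separates them, at most 2.72 in saline and at least 2.76 in LNA29 livers.

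Livers differed in how many carboxylesterases were low. Each liver was set against the median of the saline livers. All 10 members were below it in LNA29 replicates 46 and 52, 9 in LNA29 replicate 50, 8 in replicate 54, 7 in replicate 44 and 5 in replicate 48. LNA29 replicate 52 was the lowest, with a median difference over the members of -0.62 on the log2 scale and -1.08 for Ces1f. LNA29 replicate 48 ran the other way in family 1, at 0.78 for Ces1e and 0.52 for Ces1d, and held the highest value of 3 members. Among saline livers the count was 1 to 7, except for 9 in replicate 49, where the median difference was -0.35 and Ces1c was lowest, at -0.89. Saline livers themselves set that median, so their counts lie around the middle by construction. How many of all genes lay below it in each liver was not counted. Between the groups, 61.4% of the 12486 genes tested were lower in LNA29 livers. Group means removed, the members of family 1 varied together across the 12 livers, from r = 0.30 for Ces1c and Ces1f to r = 0.82 for Ces1d and Ces1e, as a description without a test, since members share a library and its scaling. The 31 pairs from different families ran from r = -0.69 to 0.72 (Ces1e and Ces2a), with a median of 0.06. Ces3a and Ces3b had r = 0.51. Ces2a and Ces2c had r = -0.77, which was -0.10 over 11 livers without LNA29 replicate 48. Correlations within family 1 were not computed without that liver.

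**Figure D4:**
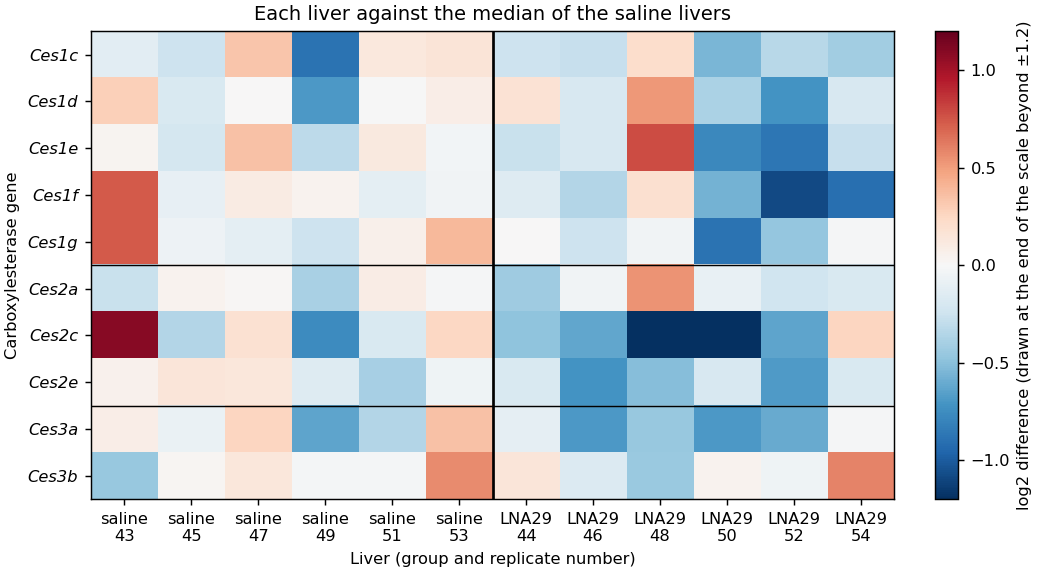
log2 difference of each of the 12 livers (columns, saline left and LNA29 right of the thick line) from the median of the 6 saline livers, for each carboxylesterase (rows, families divided by thin lines), red higher and blue lower. LNA29 replicates 46 and 52 are blue in all 10 rows, LNA29 replicate 48 is red in most of family 1, and saline replicate 49 is blue in 9 rows.

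The genes whose variation between livers was most like that of each member were sought among 8980 other genes with a mean of at least 100, by Pearson correlation over 12 livers after removal of the group means, again as a description. For Ces1c it was Lcat (r = 0.98), which encodes the plasma enzyme that esterifies cholesterol on lipoproteins. For Ces1d it was Rhbdd3 (0.88), for Ces1e Itga9 (0.95), for Ces1f H2-T10 (0.92) and for Ces1g Nop14 (0.90). In family 2 they were 2010107E04Rik for Ces2a (0.96), Cyp2d12 for Ces2c (0.99) and Cd151 for Ces2e (0.85). Cyp2d12, a cytochrome P450 gene, was also listed at 1 in LNA29 replicate 48, and over the other 11 livers r was 0.88. In family 3 they were 1300017J02Rik for Ces3a (0.92) and Cdkn1a, a cell cycle inhibitor, for Ces3b (0.93). For the mean pattern of families 1, 2 and 3 they were Mup13 (0.88), Mup21 (0.89) and Slc11a1 (0.91).

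miR-29 pairs with its targets through the bases in capitals, the seed (bases 2 to 8). The mature sequences that LNA29 is directed against are shown because the members were searched for their complement (RefSeq, GRCm38.p6).
miR-29a-3p: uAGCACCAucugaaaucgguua
miR-29b-3p: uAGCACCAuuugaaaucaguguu
miR-29c-3p: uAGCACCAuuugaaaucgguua
The seed is the same in all of them. Its DNA complement, TGGTGCT, searched on the transcript strand only, was absent from the longest annotated 3′ UTR of all 10 carboxylesterases, which measured 150 to 958 bases, and present in 2986 of 21173 genes with a 3′ UTR (14.1%). This says only that these letters are not in these windows.

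Of 10 further carboxylesterase genes, 8 were in the table and 4 had a mean of at least 10. Ces2g was 1134 ± 160 in saline and 759 ± 214 in LNA29 livers (SD, n = 6 each), and the log2 difference was -0.61 (exact permutation p = 0.00866, adjusted p in limma = 0.292). It ranged from 912 to 1304 in saline and from 528 to 1112.5 in LNA29 livers, and 5 of 6 LNA29 livers lay below the lowest saline liver. Ces2g was not compared under the other scalings. Ces1b, the neighbour that resembles Ces1c, was 8154 ± 2147 in saline and 10382 ± 4332 in LNA29 livers (exact permutation p = 0.379), with its highest value, 19113, in LNA29 replicate 48. Ces1a and Ces4a had at most 3 reads in any liver, and Ces2b, Ces2f and Ces5a were listed at 1 in all livers.

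Other hydrolases and the factors that govern hepatic drug and lipid handling had no adjusted call. Their unadjusted calls at an exact p under 0.05 were all lower in LNA29 livers, the direction in which 6.34% of all genes had such a p. These calls were made on the deposited scale and were not repeated under the other scalings. Neither Ces1f nor Ces2e kept an exact p under 0.05 there. Of 12 neutral lipid hydrolases tested (13 listed), 8 were lower and 4 higher in LNA29 livers, the median log2 difference being -0.09. One had an exact p under 0.05, Mgll, which cleaves monoacylglycerol (8204 ± 1486 against 10887 ± 1892, SD, n = 6 each, log2 fold change -0.41, exact permutation p = 0.0325, adjusted p in limma = 0.485). Of 13 other ester and epoxide hydrolases, 9 were lower and 4 higher, with a median of -0.14, and 3 had an exact p under 0.05. These were Bphl, a hydrolase that activates amino acid ester prodrugs (-0.61, from 1770 to 2747 in saline and 1268 to 1659 in LNA29 livers without overlap, exact permutation p = 0.00216, adjusted p in limma = 0.12), Cmbl (-0.34, exact permutation p = 0.00433, adjusted p in limma = 0.455) and the kynurenine formamidase Afmid (-0.53, exact permutation p = 0.013, adjusted p in limma = 0.265). Of 12 nuclear receptors and factors, 11 were lower and 1 higher, with a median of -0.23. Those with an exact p under 0.05 were Nr1i3, the constitutive androstane receptor (-0.45, exact permutation p = 0.0152, adjusted p in limma = 0.347), Cebpa, a hepatocyte transcription factor (-0.40, p = 0.0476, adjusted p = 0.539) and Rxra, the partner of many nuclear receptors (-0.26, p = 0.0498, adjusted p = 0.707). The pregnane X receptor gene Nr1i2 was the gene of this list that was higher, with a log2 difference of 0.09 (exact permutation p = 0.684). Reads were fractional for Nr1i3 in 12 livers and for Afmid in 4.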

How the data were processed

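mRNA of 12 livers was sequenced as single 100-base reads. The authors mapped reads with MapSplice2 and estimated reads per gene with RSEM on mm9 per the labels, with versions and annotation not given in the sources used here. They deposited a signal value per gene and liver, the reads divided by the upper quartile of the library times 1000, with a gene without reads set to 1. In each liver 92.2% to 93.9% of its values came to a whole number of reads (within 0.02). The authors' group means, fold changes and p-values and 3 unnamed columns were not used.

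The 10 members and the gene lists were chosen with earlier results of these data known. The groups, 6 saline and 6 LNA29 livers, come from the labels, and p-values measure the spread between these livers only. limma 3.58.1 (R 4.3.3) with a trend was fitted to log2(value + 1) over the 12486 genes whose mean reached 10, and p-values were adjusted by Benjamini-Hochberg (threshold 0.05). On this log scale the difference of a low gene depends on the value entered for no reads. For Ces2c it was -1.68, and -1.25 with a pseudocount of 10. Single genes and within-liver ratios were tested by exact permutation, two-sided, with every division of the livers into groups. Named are all members, the other carboxylesterases in the table, list genes with an exact p under 0.05 and the gene most like each member, and Nr1i2, chosen after its value was seen. Shared windows are stretches of 100 bases of the longest principal transcript (GENCODE M21) that occur in a transcript of another gene, and levels per kilobase use the length of that transcript. Alternatives were pseudocounts of 0.1 and 10, other filters and scalings, array weights, dropping values beyond 1.5 SD, and omission of each liver. Values beyond 1.5 SD were dropped with the groups known, so p-values after that step are not exact and tend to be too small. Scripts were tested on simulated data. Python 3.11.15 with numpy 2.4.6, scipy 1.17.1, pandas 2.3.3 and matplotlib 3.10.9 was used.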

Additional observations from a re-analysis of the deposited data

Results flagged for a closer look

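In groups of 6 livers, the gap between the highest or lowest liver and its neighbour was divided by the range of the group, and livers past Dixon's critical value stood apart in 8 of 52 groups, where chance gives about 1 in 20. For Ces1f, saline replicate 43 stood above the other saline livers (gap over range 0.745). For Ces2c, LNA29 replicate 48, with no read, stood below the other LNA29 livers (0.788). The same liver was the highest for Ces1b (0.731) and for the family 2 sum (0.657) and the lowest for Mgll (0.681). Saline replicate 49 was the lowest for Ces1b (0.626) and for the share of reads taken by albumin (0.701). For Nr1i3, LNA29 replicate 54 was the highest of its group (0.641).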

How the results depend on the processing

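Over all genes, 20 had a limma adjusted p under 0.05. The count was 18 to 20 with pseudocounts of 0.1 or 10 or other filters, 15 with median-of-ratios scaling, which was chosen after seeing the data, 10 with a common median, 58 with array weights and 217 with values beyond 1.5 SD discarded. It was between 1 and 29 when each liver was left out, with 1 gene without saline replicate 43 or LNA29 replicate 50, 52 or 54. Members with an exact p under 0.05 numbered 2, and 3 with values discarded, where Ces1c joined but the p is not exact. They numbered 0 with a common median or median-of-ratios scaling, and 1 to 3 when each liver was left out. Ces2e was among them whichever liver was left out, and Ces1f for 6 of the 12. In limma the unadjusted p of Ces1f was under 0.05 in every alternative, and its adjusted p in none. For Ces2e the unadjusted limma p was above 0.05 with array weights and with both other scalings. It was also above 0.05 without saline replicate 43, 45 or 47 or LNA29 replicate 46 or 52. Of 14 pairs, 1 had an adjusted p under 0.05, and 0 to 1 when each liver was left out. Ces1d, Ces2a and Ces3b changed sign. With a common median Ces1d was at 0.00031 and Ces3b at 0.027, with median-of-ratios scaling they were at 0.030 and 0.057, and with values discarded Ces2a was at -0.17 and Ces1d at -0.30. When each liver was left out Ces1d spanned -0.18 to 0.072, Ces2a -0.11 to 0.087 and Ces3b -0.13 to 0.088. The other 7 members were lower in LNA29 livers in every alternative that was run. The cause of these shifts was not tested.

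The planned count tests were not run, because whole reads could not be recovered from the values of every liver. No paired analysis was possible because the groups share no replicate numbers. Depth limits Ces2c, with at most 36 reads in any liver.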
